A study of Mus musculus with 6 samples.

Results

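The adducins Add1, Add2 and Add3 and the tropomodulins Tmod1, Tmod2 and Tmod3 encode actin-capping proteins of the spectrin skeleton. They were picked by gene symbol from a table of raw read counts, and all 6 were found among its 24421 genes. Spectrin rods are joined by short actin filaments into a lattice under the plasma membrane, and ankyrins fasten this lattice to membrane proteins. Adducin caps the fast-growing (barbed) end of the filament and brings spectrin to it, as an assembly of the alpha subunit with a beta or gamma subunit. Tropomodulin caps the slow-growing (pointed) end together with tropomyosin, which lies along the filament. In axons adducin is a part of the actin rings of the periodic membrane skeleton.

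The libraries came from whole mouse brain. In the RiboTag method Cre puts an HA tag on Rpl22, a protein of the large ribosomal subunit, and an antibody to the tag then collects ribosomes with their bound RNA from the recombined cells (IP, immunoprecipitation). The icKO mice (NG2CreERTM;Ank3F/F;Rpl22HA/+) also carried floxed Ank3, the gene of ankyrin-G, and the control mice were NG2CreERTM;Rpl22HA/+. All mice had tamoxifen at 8 weeks of age (100 mg/kg per day on 5 days) and were examined 1 month later, and each library pooled 3 mice. The groups were icKO IP (2 libraries), control IP (2), icKO input (1) and control input (1), where input is a 10% part of the cleared homogenate kept before the pull-down. The NG2 promoter that drives Cre is known to be active in oligodendrocyte precursors and in pericytes, so the pull-down is not limited to the oligodendrocytes that the labels name. One icKO IP library (replicate 1) is titled cKO rather than icKO and was placed by its genotype label, AnkG icKO. Which exons of Ank3 are floxed is not stated.

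The 6 libraries held 18968806 to 23930812 counts each, and 3 counts corresponded to 0.125 to 0.158 CPM (counts per 1e6 counts of a library). Levels given here in CPM are scaled by TMM as well. The icKO IP pair differed by 2.13 times sampling noise and the control IP pair by 2.19 times (chi-square per degree of freedom), so each counts as a separate library. Ank3, the targeted gene, was at 1163 and 1167 CPM in the icKO IPs and at 1389 and 1359 CPM in both control IPs. The icKO input had 347 CPM of it, and the control input 381 CPM. Its count covers the whole gene, so it checks the genotype labels only weakly. In the IP over input, 10 of 10 precursor markers, 12 of 12 mature oligodendrocyte markers and 8 of 8 pericyte and smooth muscle markers were higher, and 12 of 12 neuron markers and 8 of 8 astrocyte markers were lower (quasi-likelihood F test of edgeR, Benjamini-Hochberg adjusted over 15451 genes). Between genotypes, summed mature oligodendrocyte markers were at 15659 and 15555 CPM in the icKO IPs, against 25447 and 25623 CPM in the control IPs. Summed pericyte and smooth muscle markers were at 813 and 830.4 CPM in the icKO IPs, against 1593 and 1598 CPM in the control IPs. In such bulk samples fewer cells of a type and less RNA per cell cannot be told apart.

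The 6 genes lie at 5 separate places in the genome (GENCODE M21 gene models, build mm10). Add1 (alpha-adducin, ENSMUSG00000029106.14) spans chromosome 5, 34573664 to 34632308, Add2 (beta-adducin, ENSMUSG00000030000.10) chromosome 6, 86028681 to 86124409, and Add3 (gamma-adducin, ENSMUSG00000025026.15) chromosome 19, 53140443 to 53247399, all on the plus strand. Tmod1 (ENSMUSG00000028328.13), the form of erythrocytes and muscle, spans chromosome 4, 46038935 to 46116032, on the plus strand. Tmod2 (ENSMUSG00000032186.15), the neuronal form, spans chromosome 9, 75565621 to 75611325, and Tmod3 (ENSMUSG00000058587.9), the widely expressed form, spans chromosome 9, 75497707 to 75559657. Both lie on the minus strand with 5963 bases between them. The Tmod1 gene overlaps Tstd2 of the opposite strand over 1287 bases, and since the strand setting of the counting is not given in the sources used here, reads from that stretch cannot be assigned. Tstd2 itself was at 23.3 and 26.6 CPM in the icKO IPs and 23.9 and 22.2 CPM in the control IPs, below Tmod1 in each library.

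Promoters are shown for 4 of the genes, as 2 pairs that contrast in the results: Add1 and Add2, whose genotype changes had opposite signs, and Tmod1 and Tmod2, which stood on opposite sides of the input. They were taken from RefSeq (GRCm38.p6) and run from 250 bases before to 50 after a start listed by RefSeq, 5′ to 3′ on the strand of the gene. The RefSeq start used for Tmod1 lies downstream of its GENCODE start, so the Tmod1 window falls wholly inside the gene span given above. Capitals mark matches on either strand to the GC box GGGCGG and the CCAAT box CCAAT. The positions are chr5:34573414-34573713 (plus) for Add1, chr6:86028431-86028730 (plus) for Add2, chr4:46038972-46039271 (plus) for Tmod1 and chr9:75611276-75611575 (minus) for Tmod2.
Add1: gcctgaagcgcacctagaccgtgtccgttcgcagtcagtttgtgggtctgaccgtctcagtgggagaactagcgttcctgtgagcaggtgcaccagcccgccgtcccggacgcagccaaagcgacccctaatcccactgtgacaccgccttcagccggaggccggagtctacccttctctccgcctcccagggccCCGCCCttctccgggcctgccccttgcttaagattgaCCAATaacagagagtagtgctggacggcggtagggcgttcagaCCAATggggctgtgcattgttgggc
Add2: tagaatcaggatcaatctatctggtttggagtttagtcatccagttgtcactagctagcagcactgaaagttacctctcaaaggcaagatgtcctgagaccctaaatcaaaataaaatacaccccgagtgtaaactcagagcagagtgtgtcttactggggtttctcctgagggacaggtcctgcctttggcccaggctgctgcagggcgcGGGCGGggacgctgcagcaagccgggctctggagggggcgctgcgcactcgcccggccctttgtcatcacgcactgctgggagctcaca
Tmod1: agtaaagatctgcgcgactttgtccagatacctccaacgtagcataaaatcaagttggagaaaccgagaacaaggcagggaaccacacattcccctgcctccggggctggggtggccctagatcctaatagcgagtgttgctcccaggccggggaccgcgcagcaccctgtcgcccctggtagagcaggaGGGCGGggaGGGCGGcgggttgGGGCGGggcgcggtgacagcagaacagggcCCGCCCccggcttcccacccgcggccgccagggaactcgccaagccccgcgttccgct
Tmod2: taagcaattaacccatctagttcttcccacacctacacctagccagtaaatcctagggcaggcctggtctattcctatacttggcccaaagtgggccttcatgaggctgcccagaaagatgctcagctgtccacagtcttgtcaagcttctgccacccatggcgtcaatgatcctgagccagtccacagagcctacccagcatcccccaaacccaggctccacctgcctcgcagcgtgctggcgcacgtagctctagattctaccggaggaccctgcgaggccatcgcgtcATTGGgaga
The Add1 window held 1 GC box and 2 CCAAT boxes, the Add2 window 1 GC box and no CCAAT box, the Tmod1 window 4 GC boxes and no CCAAT box, and the Tmod2 window 1 CCAAT box and no GC box. Among all 32851 promoters of this length in the table, 35.7% held a GC box and 19.5% held 2 or more, while 37.4% held a CCAAT box and 11.7% held 2 or more. On either strand, the E-box CAGCTG, found in 16.3% of all promoters, was in the Tmod2 window, and the letters ACAAAG, a core bound by SOX factors, found in 18.7%, were in the Add2 and Tmod1 windows. None of the 4 motifs contains another, and a match is a description of the letters only. RefSeq lists 3 starts for Add3 and a further 1 for Tmod2, which are not shown.

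Per kilobase of the longest annotated transcript, Add1 had the highest level of the 6 genes in every library and Tmod3 the lowest. Add1 was at 146 ± 0.0434 CPM per kb in icKO IPs and 168 ± 1.83 CPM per kb in control IPs (SD, n = 2 each). In both IP groups the order after Add1 was Add3 (49.3 ± 0.0939 in icKO and 57.3 ± 0.924 CPM per kb in control), Tmod2 (39.2 ± 0.0312 and 45.6 ± 0.604), Tmod1 (30.6 ± 0.59 and 34.7 ± 0.272), Add2 (30.6 ± 0.888 and 25.8 ± 0.649) and Tmod3 (10.2 and 9.61 CPM per kb in the icKO libraries and 10.7 and 11.2 in the control libraries). Tmod1 and Add2 differed by less than their spread in icKO IPs, while in control IPs Tmod1 was above Add2 by more than the spread. In the inputs Add2 came next after Add1, at 59.5 CPM per kb in the icKO input and 62.5 in the control input, ahead of Tmod2 (55.4 and 53.6), Add3 (42.6 and 39.4), Tmod1 (20.7 and 20) and Tmod3 (5.31 and 5.91). The order between genes depends on the transcript length used, and the reads do not show which transcripts were present.

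**Figure D1:**
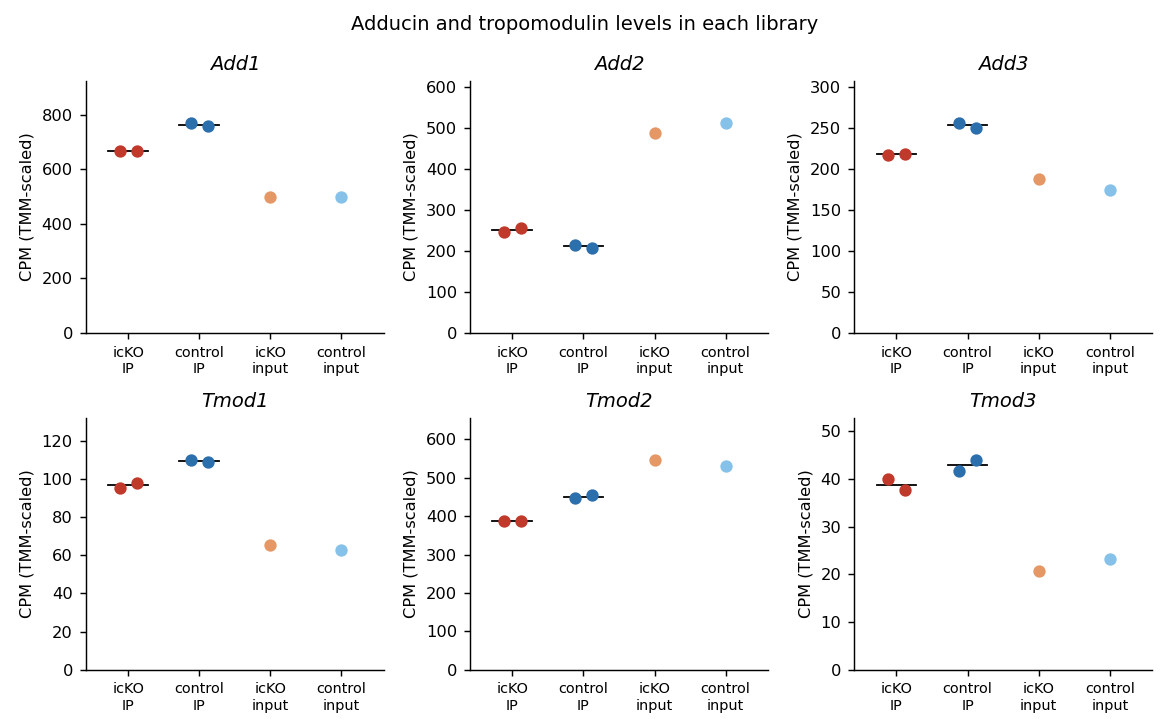
Level of each gene in every library (vertical axis, CPM with TMM scaling, from 0), with points for libraries and black lines for the mean of the 2 IP libraries of a genotype. For Add1, Add3, Tmod1, Tmod2 and Tmod3 both icKO IP points lie below both control IP points, and for Add2 both lie above. Add2 and Tmod2 are highest in the inputs.

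The main question of the design was how the RNA carried by the tagged ribosomes differs when Ank3 is floxed. Of the 6 genes, 4 fell in the icKO IP, 1 rose and 1 did not pass the test, while 25.2% of all genes tested were called lower and 22.1% higher. Both widely expressed adducins and the tropomodulins Tmod1 and Tmod2 fell by a similar small amount, to 86 to 88% of control, and beta-adducin was the gene that rose. These directions hold for TMM scaling, which leaves the median of all 15069 tested genes at a log2 change of 0.0033, for library totals and for scaling to markers of neurons, astrocytes, microglia and endothelium, but with scaling to the summed mature oligodendrocyte markers the falls turned into rises.

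Add1, the alpha subunit that every adducin assembly needs, was at 666.1 and 665.9 CPM in the icKO IPs and 769.6 and 757.9 CPM in the control IPs. The 2 groups did not overlap, as in 70.4% of 15936 genes, and the icKO level was 87.2% of control. Its log2 change was -0.19 ± 0.02 (SE; quasi-likelihood F test of edgeR, Benjamini-Hochberg adjusted p = 5.61e-08). Add3, the gamma subunit found in most tissues, was at 217.9 and 218.5 CPM in the icKO IPs and 256 and 251 CPM in the control IPs, again without overlap. The log2 change of Add3 was -0.21 ± 0.03 (SE, adjusted p = 1.76e-06 in the same edgeR test). Add2, the beta subunit, best known from erythrocytes and neurons, was at 245 and 255 CPM in the icKO IPs, both above the 215 and 207 CPM of the control IPs. That is a level of 119% of control and a log2 change of 0.25 ± 0.03 (SE, adjusted p = 2.00e-07, edgeR). With a transcript length offset the log2 change of Add2 was 0.11 (adjusted p = 0.0085), with library totals 0.16 and with scaling to markers of other cell types 0.16.

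Tmod1 was at 95.3 and 98 CPM in the icKO IPs and at 110.2 and 108.9 CPM in the control IPs. These groups were separate too, at a log2 change of -0.18 ± 0.05 (SE, adjusted p = 0.0016, edgeR). Tmod2 was at 387.5 and 387.1 CPM in the icKO IPs, below the 447 and 455 CPM of both control IPs. The log2 change of Tmod2 was -0.22 ± 0.03 (SE, adjusted p = 6.28e-08, edgeR), and -0.41 with the transcript length offset. Tmod3 was at 39.9 and 37.6 CPM in the icKO IPs and 41.8 and 44.1 CPM in the control IPs. Here too the icKO pair was the lower one, but the log2 change of -0.14 ± 0.07 (SE) did not pass (adjusted p = 0.0907, edgeR). Its 95% interval ran from -0.29 to -0.0014, so that a fall as large as those of the other 4 genes lies inside it. Tmod3 passed with library totals (-0.23, adjusted p = 0.0068) and with scaling to markers of other cell types (-0.24, adjusted p = 0.0059).

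Calls were common in this comparison. Of all genes tested 47.2% were called, 22.1% as higher and 25.2% as lower, and CPM values of the 2 IP groups did not overlap in 70.4% of 15936 genes. The median absolute log2 change over all genes was 0.25 (0.252 before rounding), above the size of the change of each of the 6 genes. Changes of this size were thus ordinary in these libraries. With scaling to mature oligodendrocyte markers the median gene was at 0.71, and Add1 (0.51), Add3 (0.49), Tmod1 (0.53), Tmod2 (0.49) and Tmod3 (0.56) were below that median, while Add2 (0.96) was above it. Over all genes the share of calls that were higher was 46.7% with TMM, 32.6% with library totals, 31.3% with markers of other cell types and 99.2% with the mature oligodendrocyte list. All 12 mature oligodendrocyte markers (median log2 -0.75) and 8 of 10 precursor markers (median -0.26, with 1 higher) fell alongside Add1, Add3, Tmod1 and Tmod2, and their part in these falls was not tested. Among the precursor markers Cspg4, the gene of NG2, was the higher one (0.08), and Pdgfra did not pass (-0.03). The same list holds Olig1 (-0.55), Olig2 (-0.57) and Sox10 (-0.42), genes of the whole oligodendrocyte lineage rather than of precursors alone. The precursor list had 0 higher and 9 lower with library totals, and 9 and 0 with mature oligodendrocyte scaling. Of 8 astrocyte markers 5 rose and 1 fell, of 8 microglia markers 1 rose and 2 fell, and of 8 endothelium markers 1 rose and 1 fell, all with TMM. With library totals the counts were 2 and 2 for astrocyte, 0 and 2 for microglia and 1 and 3 for endothelium markers, and with mature oligodendrocyte scaling 8 and 0, 6 and 0, and 4 and 0. Of 12 neuron markers 6 rose and 2 fell (median log2 0.08; 5 and 3 with library totals, 12 and 0 with mature oligodendrocyte scaling), and their summed level was 2084 and 2031 CPM in the icKO IPs, against 1824 and 1867 CPM in the control IPs, with none at 0. The part of neuronal RNA in the change of Add2 was not tested. Of 7 erythrocyte markers, 4 globin genes were at 0 in all libraries, both markers tested were lower in icKO, and the whole list summed to 2.36 and 2.65 CPM in the icKO IPs, against 5.49 and 5.91 CPM in the control IPs. The inputs differed in the same direction, with sums of 8.8 CPM in the icKO input and 26.6 CPM in the control input.

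**Figure D2:**
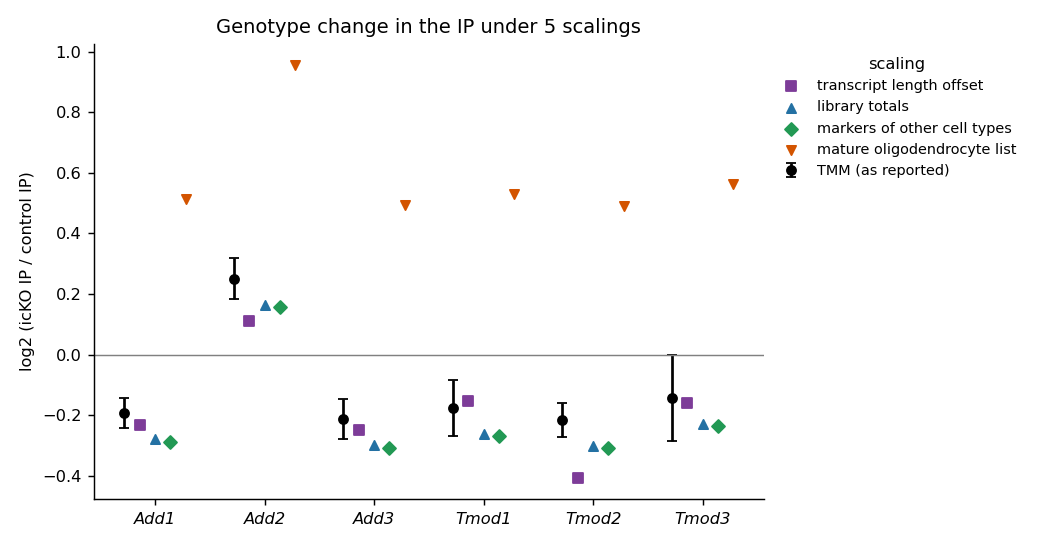
Log2 ratio of icKO IP to control IP (vertical axis) for each gene under 5 scalings, where black points with bars are the edgeR values and 95% intervals with TMM and other symbols are the alternatives. Add2 lies above the other 5 genes under each scaling, and the mature oligodendrocyte list moves all 6 above 0.

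Ratios between genes inside a library do not depend on how libraries are scaled, and they separated Add2 from the rest. In counts, Add2 per Add1 was 0.368 and 0.384 in the icKO IPs and 0.279 and 0.273 in the control IPs, a 1.36-fold higher ratio in icKO (log2 0.44, SD 0.033 within groups, n = 2 each). In the inputs the ratio was 0.979 in icKO and 1.02 in control, so that the icKO IPs lay between the control IPs and the inputs. In raw counts the other genes kept close to Add1. Between icKO and control IPs their ratio to Add1 differed by a log2 of -0.02 (Add3), 0.017 (Tmod1), -0.022 (Tmod2) and 0.051 (Tmod3). For Tmod1, Tmod2 and Tmod3 these ratios overlapped between the genotypes. Those of Add3 did not, at 0.327 and 0.328 in the icKO IPs and 0.333 and 0.331 in the control IPs. Tmod2 per Tmod1 was 4.06 and 3.95 in the icKO IPs and 4.06 and 4.18 in the control IPs. These ratios carry no correction for transcript length. Under the transcript length offset the edgeR log2 change was 0.11 for Add2, -0.23 for Add1, -0.25 for Add3 and -0.41 for Tmod2. Add2 thus still stood above Add1, while Tmod2 stood further below Add1 than in the counts. With 2 libraries against 2 the exact two-sided permutation test cannot go below p = 0.333, which is the value for Add2 per Add1.

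**Figure D3:**
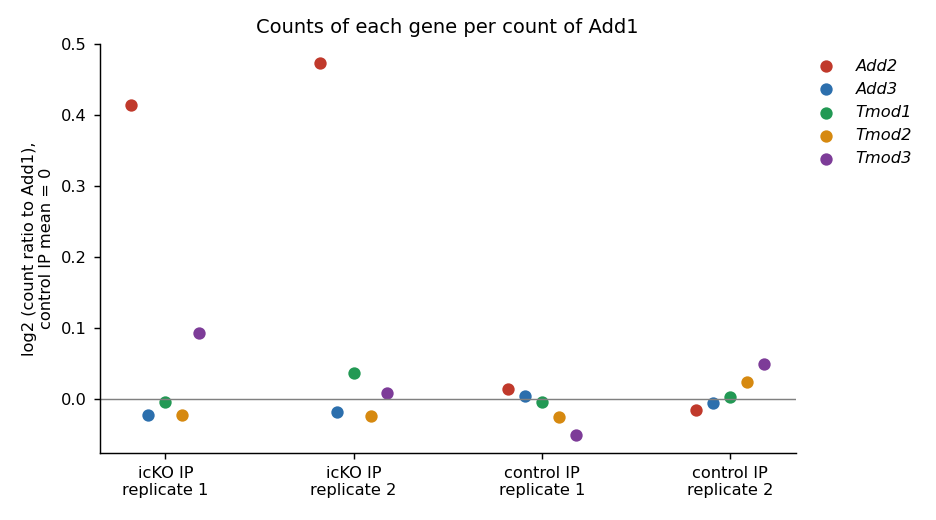
Log2 of the counts of each gene per count of Add1 in the 4 IP libraries (vertical axis), set to 0 at the mean of the control IPs. Add2 stands at about 0.4 or more in both icKO IP libraries, and the other 4 genes stay within 0.1 of 0 in each library.

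The make-up of the adducin pool differed accordingly. Per kilobase, Add2 was 13.3% and 13.8% of the adducin sum in the icKO IPs and 10.4% and 10.2% in the control IPs, a difference of 3.25 percentage points. Add1 was 64.7 ± 0.288% in icKO IPs and 66.9 ± 0.178% in control IPs, and Add3 was 21.8 ± 0.0488% and 22.8 ± 0.059% (SD, n = 2 each). In the inputs Add2 took 28.1% in icKO and 29.5% in control. The tropomodulin pool showed smaller differences: Tmod2 was 49.2 ± 0.128% in icKO IPs and 50 ± 0.252% in control IPs, and the shares of Tmod1 (38.4 ± 0.671% and 38.0 ± 0.61%) and Tmod3 (12.4 ± 0.542% and 12.0 ± 0.358%) overlapped. Summed per kilobase, adducins were at 225.7 and 227 CPM per kb in the icKO IPs and 253 and 249 in the control IPs, or 90.2% of control. The tropomodulin sum was 79.6 and 79.8 CPM per kb in the icKO IPs and 90.8 and 91.8 in the control IPs, or 87.3% of control.

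Set against input, 4 of the 6 genes were higher in the IP and 2 were lower, in the same directions in both genotypes. Tmod3 stood highest above input with a log2 of 0.90 ± 0.10 in icKO and 0.89 ± 0.10 in control. Tmod1 (0.57 ± 0.06 in icKO and 0.80 ± 0.06 in control), Add1 (0.42 ± 0.03 and 0.61 ± 0.03) and Add3 (0.21 ± 0.04 and 0.54 ± 0.04) followed. Tmod2, at -0.50 ± 0.03 in icKO and -0.23 ± 0.03 in control, and Add2, at -0.96 ± 0.04 and -1.28 ± 0.04, were below input (log2 ± SE from a fit of 4 group means in which each lone input is assumed to vary like the IP pairs). All 12 of these values passed after Benjamini-Hochberg adjustment (edgeR), with the largest adjusted p at 5.04e-05. The background was again high, since 34.7% of 15936 genes were higher and 34.8% lower in the icKO IP than in its input, and 34.4% and 33.9% in the control IP.

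Over both genotypes together, with genotype as a term, the log2 of IP over input was 0.89 for Tmod3, 0.68 for Tmod1, 0.51 for Add1, 0.37 for Add3, -0.37 for Tmod2 and -1.13 for Add2. All 6 passed (edgeR, largest adjusted p 0.0028), beside 34.8% of 15451 genes called higher and 35.1% called lower. The median absolute log2 over all genes was 0.66, which Add2, Tmod1 and Tmod3 exceeded. Without the icKO input Tmod2 was at -0.24, and without the control input Add3 was at 0.21. With the transcript length offset Tmod2 was at -0.83. With scaling to mature oligodendrocyte markers all 6 genes were below input, and with scaling to markers of other cell types all 6 were above it, since these settings put the median gene at -2.58 and 1.93. Add2 was the lowest of the 6 genes and Tmod3 the highest in both of these settings.

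**Figure D4:**
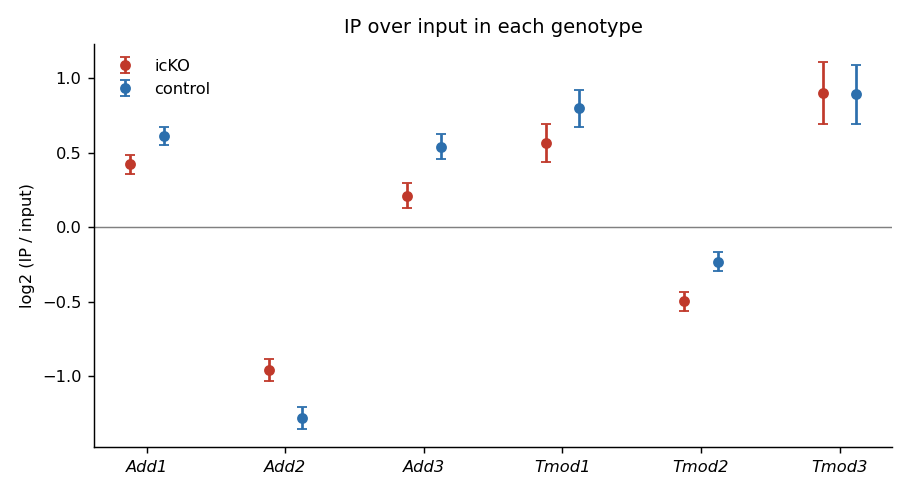
Log2 ratio of IP to input (vertical axis) in icKO (red, left) and control (blue, right) for each gene, with 95% intervals from edgeR. Add1, Add3, Tmod1 and Tmod3 lie above 0 and Add2 and Tmod2 below it, and icKO is below control for Add1, Add3, Tmod1 and Tmod2 and above it for Add2.

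Between the inputs, which had no replicates, the 6 genes differed little. Add1 was at 497 CPM in the icKO input and 500.1 CPM in the control input, Add2 at 487 and 511 CPM, and Add3 at 188 and 174 CPM. Tmod1 was at 65.3 CPM in the icKO input and 63 CPM in the control input, Tmod2 at 547 and 530.1 CPM, and Tmod3 at 20.8 and 23.2 CPM. The log2 ratio of icKO to control input was -0.0092 for Add1 (10222 and 11010 counts, 95% interval of counting error -0.048 to 0.03). It was -0.07 for Add2 (-0.11 to -0.03), 0.11 for Add3 (0.05 to 0.18), 0.05 for Tmod1 (-0.06 to 0.16), 0.05 for Tmod2 (0.0085 to 0.08) and -0.15 for Tmod3 (-0.34 to 0.03). These exact binomial intervals cover counting error only. The median absolute log2 ratio between the inputs over all genes was 0.13, above the value of 5 of the 6 genes. Add2, higher in the icKO IPs, was slightly lower in the icKO input, and Add3, lower in the icKO IPs, was slightly higher in the icKO input. With scaling to markers of other cell types the ratios of Add3 (0.043, -0.022 to 0.108) and Tmod2 (-0.021, -0.059 to 0.016) no longer excluded 0. Under that scaling those of Add1 (-0.077, -0.116 to -0.038) and Tmod3 (-0.222, -0.411 to -0.034) did.

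The genotype change in IP was then set against that in input in 1 model. The difference was 0.32 ± 0.05 for Add2 (log2 ± SE, adjusted p = 2.80e-05), -0.33 ± 0.06 for Add3 (9.48e-05), -0.27 ± 0.05 for Tmod2 (5.36e-05) and -0.19 ± 0.04 for Add1 (0.0015) (edgeR, Benjamini-Hochberg adjusted). So under that assumption the genotype change of the IP differed from that of whole homogenate for these 4 genes, 1 upwards and 3 downwards. Beside them, 9.67% of 15936 genes were called higher and 13.9% lower. Tmod1, at -0.23 ± 0.09 (adjusted p = 0.0525), missed the threshold narrowly. Without icKO IP replicate 2 it passed in edgeR (-0.25, adjusted p = 0.0381). In all it passed as lower in 6 of 12 alternatives, and over the alternatives other than mature oligodendrocyte scaling its adjusted p ran from 0.0097 to 0.224. Tmod3 was at 0.0078 ± 0.14 (adjusted p = 0.98), with a 95% interval of -0.28 to 0.29 that is wide enough to hold the values of Tmod1 and Tmod2. With scaling to mature oligodendrocyte markers all 6 differences were above 0, around a median gene at 0.68.

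The partners of these caps in the lattice moved in both directions, in a comparison where 22.1% of all genes tested rose and 25.2% fell. Of 21 tested genes of the spectrin-actin network, without the 6 caps, 9 rose and 7 fell in the icKO IP (median log2 -0.05, against 0.0033 over all genes tested), 9 and 9 with library totals and with markers of other cell types, and 17 and 0 with scaling to mature oligodendrocyte markers. Among the rises were the spectrins Sptan1 (1.44) and Sptbn1 (1.03), rods of the lattice. The largest falls were in Lmod1 (-1.04), a leiomodin related to the tropomodulins that nucleates actin in smooth muscle, and the tropomyosins Tpm2 (-0.88) and Tpm4 (-0.72), all past the edgeR threshold. Levels of Lmod1 were low, at 1.93 and 1.38 CPM in the icKO IPs and 2.86 and 3.97 CPM in the control IPs. All 8 pericyte and smooth muscle markers fell with Lmod1, Tpm2 and Tpm4 (median -0.96, none at 0), and the part of these markers in those falls was not tested. Sptan1 was at 38360 and 38123 CPM in the icKO IPs and 14403 and 13915 CPM in the control IPs, against 1247 CPM in the icKO input and 1180.1 CPM in the control input. Adducin counts per count of Sptan1 were 0.0294 and 0.0299 in the icKO IPs and 0.0861 and 0.0874 in the control IPs, or 2.92-fold lower in icKO. The same ratio was 0.94 in the icKO input and 1.0 in the control input. Tropomodulin counts per count of Sptan1 were 0.0136 and 0.0137 in the icKO IPs and 0.0416 and 0.0437 in the control IPs, or 3.12-fold lower. Per count of Actb, a cytoplasmic actin that itself fell with TMM scaling, adducin counts were higher in icKO, at 0.61 and 0.617 against 0.468 and 0.466 in the control IPs. The ratios to spectrin and actin were chosen after the values were seen.

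**Figure D5:**
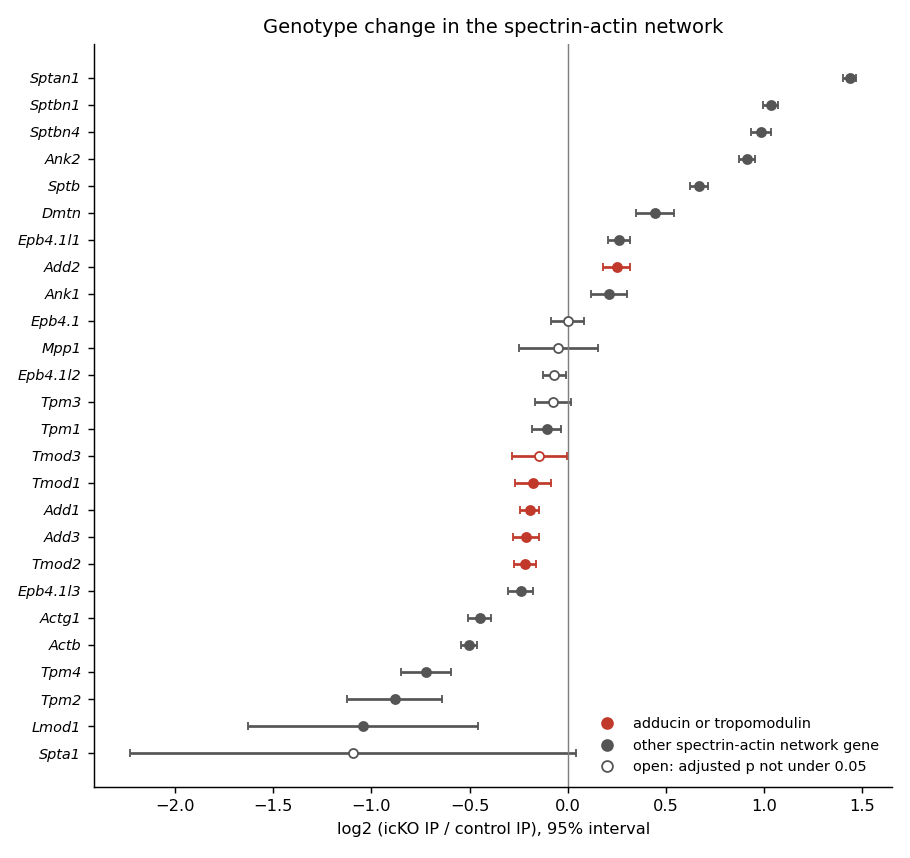
Log2 ratio of icKO IP to control IP with 95% intervals from edgeR (horizontal axis) for the 6 caps (red) and 20 other genes of the spectrin-actin network (grey), sorted by value, with open points for an adjusted p that is not under 0.05. Add2 lies among the rising genes, near 0.25, and the other 5 caps lie together between -0.14 and -0.22, far from the spectrins at the top.

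Among 16 other genes of filament-end capping and severing, 5 rose and 7 fell (median -0.03), beside 22.1% and 25.2% of all genes tested. These counts were 3 and 8 with library totals and with markers of other cell types, and 15 and 0 with scaling to mature oligodendrocyte markers. Scin, the severing protein scinderin, had the largest rise, a log2 of 3.18 between low levels of 4.88 and 3.65 CPM in the icKO IPs and 0.573 and 0.372 CPM in the control IPs. Vill, a villin-like gene (0.73), and Rltpr, an older symbol of the capping-protein regulator Carmil2 (0.30), rose too. Falls were led by Rcsd1 (-0.43), which encodes a protein that binds capping protein, Capzb, the beta subunit of barbed-end capping protein (-0.38), and Eps8, a barbed-end capper (-0.32). The capping protein alpha subunits Capza1 (-0.22) and Capza2 (-0.25) fell by amounts close to those of Add1 and Add3, and were picked out after their values were seen. Of 15 kinase and phosphatase genes linked to adducin phosphorylation or actin control, 8 rose and 4 fell (median 0.09), beside the same shares of all genes. With library totals and with scaling to markers of other cell types these counts were 4 and 5, and with scaling to mature oligodendrocyte markers 15 and 0. The largest rises were in Prkcd, a protein kinase C (0.99), and in Camk2b (0.32) and Camk2a (0.30), subunits of a calcium-dependent kinase abundant in neurons, whose markers are given above. Prkcd also differed between the inputs, at 42.3 CPM in icKO and 19.5 CPM in control, and its genotype change in IP over that in input was -0.13 ± 0.19 (log2 ± SE, adjusted p = 0.695, edgeR). The largest falls were in Fyn (-0.31), a kinase active in myelination, and in Prkaca (-0.30) and Prkacb (-0.24), the catalytic subunits of protein kinase A.

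Across the 6 libraries, the closest profile to each gene was sought among 11644 genes of at least 5 CPM, by the root mean square difference of centred log2 CPM. Those closest to Add1 were Panx1 (0.019), Lyn (0.027) and Acss1 (0.028), and those closest to Add3 were Atxn1l (0.018), Zfp281 (0.019) and Etv1 (0.027). Add2 was nearest to Robo2 (0.021), Kcnq5 (0.029) and Mef2d (0.036). Tmod1 lay next to Dpf2 (0.023), Os9 (0.024) and Csf1 (0.026), Tmod2 to Ccdc97 (0.0072), Tmcc2 (0.02) and Susd4 (0.023), and Tmod3 to Patz1 (0.027), Zmpste24 (0.032) and Foxn2 (0.036). By the same measure Add1 and Add3 were 0.075 apart and Add1 and Tmod1 0.08, while Add2 was 0.405 from Tmod2 and 0.962 from Tmod3. These are descriptions over 6 libraries that share 4 IP and 2 input preparations, and they say nothing of shared function.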

How the data were processed

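RNA was sequenced from 4 IP and 2 input libraries of mouse brain. The authors deposited raw read counts per gene symbol, without normalization. Per the submitters' processing notes, Trimmomatic 0.39, STAR 2.7.10b and build mm10 were used, and per the labels' protocols the libraries were made with a stranded total RNA kit for low input. The counter, annotation, strand setting and duplicate handling were not given in the sources used here. Of 24421 genes, 10 had no input value and were left out. The 6 genes all passed the filter on low counts in every comparison.

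Levels are CPM with TMM factors over 6 libraries. Tests were two-sided, with edgeR 4.0.16 in R 4.3.3 (filterByExpr, TMM, quasi-likelihood F test, Benjamini-Hochberg over all genes tested, adjusted p under 0.05). The genotype comparison was fitted to the 4 IP libraries (common coefficient of variation 3.01%), with 2 residual degrees of freedom. A median of 29.7 prior degrees of freedom came from the spread over all genes. The SEs and p-values thus rest mostly on that shared spread rather than on the spread of each gene. IP over input used all 6 with genotype as a term, and values within a genotype and the difference of genotype changes used 4 group means. The SE is the size of the log2 change divided by the square root of F, and intervals use a level of 95%. The length offset came from a lowess trend (span 0.3) of each library on longest transcript length, with a prior count of 2, for 98.2% of symbols. DESeq2 1.42.0 was an alternative. Tests were checked on simulated data with the same mean profile and spread in all 6 libraries apart from the genes made to change. That check could not test the scaling or the spread assumed for the lone inputs. IP libraries are labelled as biological replicates, but not whether their pools held different mice, so p-values reflect spread among these libraries that could be technical. Same-numbered IP libraries did not deviate together (correlation -0.015), so no block was used in the reported fit.

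Named were the 6 genes, Ank3, the 3 nearest profiles of each gene and the 3 largest rises and falls past the threshold of each of 3 gene lists. Tstd2, Actb, Capza1, Capza2, Cspg4, Pdgfra, Olig1, Olig2 and Sox10 were named outside this rule, after their values were seen. The 6 genes, the lists and the tests were chosen with earlier results of these data known. Of 25 network symbols 24 were found, 4 of them under older symbols through RefSeq synonyms. Of the network genes that this rule names, 1 is not reported here. Protein sequences were not used here.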

Additional observations from a re-analysis of the deposited data

Results flagged for a closer look

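For 4 genes the IP over input ratio differed between icKO and control by the test of the difference itself (edgeR, Benjamini-Hochberg adjusted). In the same test 9.67% of 15936 genes were called higher and 13.9% lower. The log2 difference, icKO minus control, was 0.32 for Add2, -0.33 for Add3, -0.27 for Tmod2 and -0.19 for Add1. With scaling to mature oligodendrocyte markers the negative differences turned positive, at 0.36 for Add3, 0.42 for Tmod2 and 0.50 for Add1. Each rests on 2 IP libraries and 1 input library per genotype, and on the assumption that each lone input varies like the IP pairs. For Add3 icKO over control was -0.21 in the IP and 0.11 between the inputs, or 0.043 between the inputs with scaling to markers of other cell types.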

How the results depend on the processing

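In the genotype comparison the rise of Add2 kept direction and call under all 14 alternatives, and the falls of Add1, Add3, Tmod1 and Tmod2 under all but 1. The exception was scaling to mature oligodendrocyte markers: 12916 genes were called against 7119, 6 of the 6 genes were higher and 0 lower, with Add1 at 0.51, Add3 at 0.49, Tmod1 at 0.53, Tmod2 at 0.49 and Tmod3 at 0.56. The same scaling put IP over input at -2.08 (Add1), -2.22 (Add3), -1.91 (Tmod1) and -1.71 (Tmod3), at -1.82, -2.03, -1.68 and -1.35 in icKO and at -2.32, -2.40, -2.14 and -2.04 in control, with 0 of the 6 genes called higher and 6 lower in each. The difference of genotype changes became 0.50 (Add1), 0.36 (Add3), 0.46 (Tmod1) and 0.42 (Tmod2), with 10403 genes called against 3763, 6 of the 6 genes higher and 0 lower. Scaling to markers of other cell types put IP over input at 0.79 for Add2 and 1.55 for Tmod2, at 0.94 and 1.40 in icKO and at 0.65 and 1.69 in control, with 0 of the 6 genes called lower in each. Between the inputs it turned Tmod2 to -0.021 and Tmod1 to -0.017. These lists are themselves far from input and differ between genotypes, which sets the shift.

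The difference of genotype changes of Tmod3, near 0, turned to -0.062 with library totals, -0.015 with markers of other cell types and -0.024 with the length offset. It was -0.037 without icKO IP replicate 1 and -0.033 without control IP replicate 1, in a range of -0.037 to 0.052 over the libraries left out, and no setting other than the mature oligodendrocyte list called it. DESeq2 called 1705 genes in that comparison, where it adjusted over 8392 genes. Leaving out 1 library at a time gave 5905 to 6242 genes called between genotypes in IP, 10106 to 11076 for IP over input, 10583 to 11206 in icKO, 10323 to 11020 in control and 3515 to 3889 for the difference. Among the 6 genes it gave 1 higher and 4 lower between genotypes, 4 and 2 against input, and 1 higher and 3 to 4 lower for the difference.

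With a replicate block, 7277 genes were called between genotypes and no call among the 6 genes changed (Tmod3 adjusted p = 0.0866). The pairing of numbers is not given by the labels, and the inputs carry none. The higher share of Add2 among adducins, 3.25 points, was 3.92 with mean transcript length and 4.89 from raw counts. With 2 libraries a group and single inputs, small changes such as that of Tmod3 (681 to 1066 counts per IP library) were at the limit of detection.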
